A study of Mus musculus with 6 samples.

Results

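The baseline transcriptome described here is that of E14 cells, a mouse embryonic stem cell line, that received pooled siRNAs without a specific target. These control siRNA cells were profiled on 2 of the 6 expression arrays of a study of p/CIP. p/CIP is the product of Ncoa3, a coactivator of nuclear receptors. The other arrays hold E14 cells given 1 of 2 siRNAs against p/CIP, with 2 arrays for each, and no value from them was used. The controls carry a transfection, so these levels are those of transfected cells, and no untransfected cells were analysed here. Growth was on adherent plates at 37 °C in 5% CO2 per the labels, which name neither the medium nor feeder cells. RNA came from RNeasy columns (Qiagen). The labels number the control arrays as replicates 1 and 2 without saying that they came from separate cultures, so the spread between them may be technical.

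The members are the 19938 genes whose symbol stood alone on a probe set, with the brightest probe set standing for a gene that had several. They were ranked within each array by signal on a log2 scale. Pairs of values below are given as replicate 1 and then replicate 2, and every level is an array signal, which depends on how well each probe set binds as well as on the RNA, and is not divided by transcript length. A rank is therefore a rank of signal. As a yardstick for comparing genes, the gap between probe sets of the same gene was measured on the 887 genes that had more than 1 probe set and a brightest one above background. Their 2 brightest probe sets differed by a median of 0.64 on the log2 scale, and by 3.05 at the 90th percentile.

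Mouse embryonic stem cells are derived from the early epiblast and keep the ability to form the tissues of the body. Their state rests on a small circuit of transcription factors, with Pou5f1, Sox2 and Nanog at its core, and cultures can move between a naive state and a primed state that lies closer to differentiation. They divide rapidly with a short G1 phase and draw heavily on glycolysis. Most genes of adult tissues, such as the receptors of the nose and tongue, are silent in them.

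The 5 defining markers of stem cells stood high on both arrays. Dppa5a, an RNA-binding protein of pluripotent cells, read 13.62 and 13.66 and ranked 19th and 14th of 19938. Nanog, a homeodomain factor that sustains self-renewal, read 13.05 and 12.89. Pou5f1 (Oct4), the POU factor without which pluripotency is lost, read 12.91 and 12.80. Sox2, its DNA-binding partner, read 12.54 and 12.35. These 4 genes lay in the highest 10% of genes on both arrays. Zfp42 (Rex1), a zinc finger marker of the naive state, read 10.94 and 10.71, below that 10%, at ranks 2160 and 2470. Ncoa3 itself read 12.33 and 12.28, at ranks 422 and 437, so the gene that the study set out to lower was among the highest 500 by signal in control cells.

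Classes of signal were set against genes that have no known role in these cells. The background level of each array was the 95th percentile of 1240 chemosensory receptor genes (olfactory, vomeronasal, taste and trace amine receptors), which fell at 6.61 and 6.66. The abundant class held genes above the 90th percentile of all genes on both arrays, at 11.03 and 10.98. It contained 1922 genes, 9.64% of the total. The middle class lay between the levels on both arrays and held 11499 genes, 57.7%. The background class lay at or below the background level on both arrays and held 5961 genes, 29.9%. The remaining 556 genes, 2.79%, fell in different classes on the 2 arrays. Of these, 144 moved between abundant and middle, 412 between middle and background, and 0 between abundant and background.

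**Figure D1:**
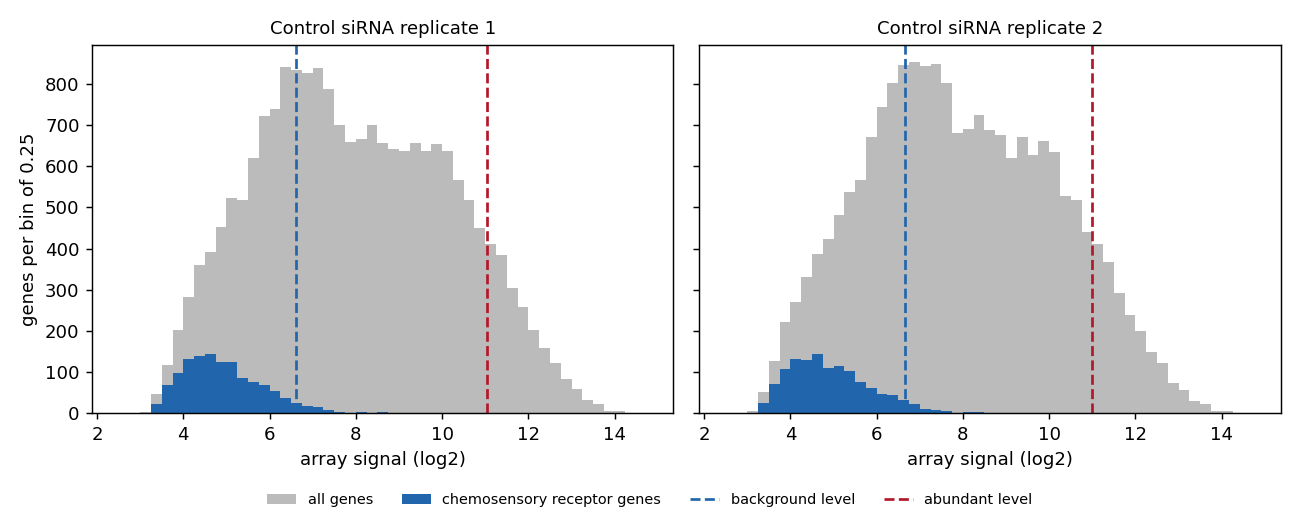
Histograms of array signal (log2, x axis) for the 19938 genes (grey) and the 1240 chemosensory receptor genes (blue) on each control siRNA array, with the number of genes per bin on the y axis. The receptors gather at the low end, with medians of 4.78 on both arrays, and the dashed lines mark the background levels of 6.61 and 6.66 and the abundant levels of 11.03 and 10.98.

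The thresholds cut a continuous distribution. At the upper threshold, Sar1a read 11.03 and 11.01 inside the abundant class and Wdtc1 read 11.03 and 10.97 in the middle class. At the lower threshold, Cdhr5 read 6.62 and 6.67 inside the middle class and Tas1r3 read 6.61 and 6.64 in the background class. These neighbours differed by less than the median gap between the arrays, 0.09 on the log2 scale.

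The 2 arrays ranked genes alike. Over the 19938 genes Pearson's r between them was 0.9977 and Spearman's rho 0.9976, as a description across genes, which are not independent replicates. The highest 100 genes of each array shared 91 members and the highest 25 shared 23. The median SD of a gene over the 2 arrays was 0.05 in the abundant class, 0.07 in the middle class and 0.07 in the background class.

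Among the genes of highest mean signal, the RNA 7SK (Rn7sk), which holds the elongation factor P-TEFb inactive, was first on both arrays at 14.29 and 14.22. Baiap2l1, an adaptor that links membranes to actin, was second at 14.20 and 14.19. Eef1a1, which delivers aminoacyl-tRNA to the ribosome, ranked 3rd at 14.15 and 14.14, and cytoplasmic beta-actin (Actb) ranked 4th at 14.05 and 14.09. Thioredoxin (Txn1), which reduces protein disulfides, ranked 5th at 14.01 and 13.89. The first 5 ranks were the same on both arrays.

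Of the 25 genes of highest mean, 9 serve protein synthesis. They were Eef1a1, Eef2, Eif4a1, Eif5a, Pabpc1 and the ribosomal proteins Rplp1, Rpl10, Rps6 and Rps15, with values between 13.58 and 14.15. Others of the 25 were the heat shock cognate Hspa8 at 13.79 and 13.77, the ATP synthase subunits Atp5d and Atp5b, the glucose transporter Slc2a1 at 13.64 and 13.63, and the G1 kinase Cdk4 at 13.61 and 13.54. Peg10, an imprinted gene derived from a retrotransposon, read 13.75 and 13.81. The metallothionein Mt2 read 13.77 and 13.75, the ubiquitin-conjugating enzyme Ube2d3 13.66 and 13.60, the tubulin Tubb5 13.60 and 13.64, the G protein subunit Gnb1 13.59 and 13.64, and the histone gene H4c4 13.57 and 13.63. Dppa5a was the only gene of the 5 defining markers among the 25.

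The machinery of growth was concentrated in the abundant class. Against 9.64% of all genes, the class held 47 of 55 cytosolic ribosomal proteins, 29 of 33 translation factors, 24 of 26 chaperones, 12 of 15 glycolysis genes and 23 of 28 splicing factors. No member of these lists was in the background class. Median signals were 12.78 for ribosomal proteins, 12.49 for translation factors, 12.51 for chaperones, 12.61 for glycolysis and 11.87 for splicing. The highest splicing factors were Hnrnpk at 13.09 and 13.01, Srsf2 at 12.97 and 13.01, Srsf3 at 12.96 on both arrays, Snrpd3 and Hnrnpu, and Snrpd1, U2af1, Srsf5 and Sf3b2 were middle and Snrnp70 split. The middle translation factors were the cap-binding protein Eif4e at 11.02 and 10.85, Eif3m, Eef1d and Eif5b.

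Signals of the ribosomal proteins spanned 8.28 to 13.79 in mean. Rplp1, a protein of the ribosomal stalk, stood highest at 13.75 and 13.82, whereas its stalk partner Rplp2 was lowest at 8.29 and 8.27. Rpl10, Rps6, Rps15 and Rpl19 (13.55 and 13.56) followed Rplp1. The other 7 in the middle class were Rps21, Rpl30, Rpl14, Rpl22, Rpl12, Rpl34 and Rps15a, between 9.33 and 10.70. The arrays differed by much less than this, with a median SD of 0.04 for the list.

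Among chaperones, Hspa8, the prolyl isomerase Ppia (13.48 and 13.50) and Hsp90aa1 (13.46 and 13.41) led, followed by Canx at 13.11 and 13.08, and the 8 measured subunits of the CCT folding ring, Tcp1, Cct2, Cct3, Cct4, Cct5, Cct6a, Cct7 and Cct8, lay between 11.68 and 12.99. The 2 members outside the abundant class were Dnajb1, at 10.136 and 10.003, and Hsph1, which crossed the threshold at 11.15 and 10.98. Glycolysis was led by Slc2a1 and Ldha, which makes lactate, at 13.62 and 13.53, with Aldoa, Slc2a3 and Hk1 next. Its 3 middle members were Pfkp, Hk2 and Pfkm.

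The respiratory chain had 29 of 41 members in the abundant class and 11 in the middle class. Atp5b, at 13.71 and 13.64, and Cox6c, at 13.58 and 13.51, led it, and Ndufb10, a subunit of complex I, was lowest at 8.69 and 8.68. Ndufs7, Atp5g1 and cytochrome c (Cycs) came next at the top, between 12.95 and 13.11. The other middle members, Ndufa4, Uqcrh, Sdhd, Sdhb, Ndufb5, Ndufs1, Ndufb8, Uqcrfs1, Ndufa2 and Ndufa1, lay between 8.63 and 10.91. The proteasome had 21 of 31 members abundant, led by Psmb3 at 13.55 and 13.54, Psmb5, Psmb2, Psmd1 and Psmd2. Psmc2 was lowest at 10.25 and 10.17, in the middle class. The other middle members were Psma4, Psmd3, Psmc3, Psmd4, Psma7, Psma5 and Psmc5, and Psmc6 and Psmd6 were split. Neither list had a background member.

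Genes of the cell cycle stood nearly as high. DNA replication had 17 of 34 members abundant and 15 middle, led by the clamp Pcna at 13.10 and 13.01 and the clamp loader subunit Rfc5 at 13.02 and 13.07. The 6 subunits of the MCM helicase, Mcm2 to Mcm7, were abundant, between 11.43 and 12.57. Mcm5 and Rrm2, a subunit of ribonucleotide reductase, at 12.34 and 12.29, were also among the highest 5. Gmnn, the inhibitor of licensing, was lowest at 7.90 and 7.65. The other middle members were Rpa1, Orc1, Tk1, Pold1, Rfc1, Gins2, Dut, Rfc2, Rfc3, Cdc45, Pola1, Fen1, Gins1 and Cdc6, and Pole and Rpa2 were split. Mitosis had 16 of 22 members abundant, led by Ccnb2 at 12.53 and 12.49, the kinase Plk1 at 12.48 and 12.41 and Cdk1 at 12.30 and 12.24, with Mad2l1 and Cdc20 of the spindle checkpoint next. Prc1, Incenp, Birc5, Cenpe and Ndc80 were middle, between 9.46 and 10.74, and Nusap1 was split.

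Chromatin complexes had 27 of 36 members abundant and 9 middle. Trim28, which silences retroviral elements, led at 13.20 and 13.17, followed by Jarid2, a partner of Polycomb repressive complex 2, at 12.89 and 12.86. The core subunits of that complex, Ezh2, Suz12 and Eed, read 12.35 and 12.29, 12.06 and 11.92, and 11.37 and 11.20. Of the paired ubiquitin ligases of Polycomb repressive complex 1, Rnf2 was abundant at 11.39 and 11.25 and Ring1 was the lowest member of the list at 8.38 and 8.45. The other middle members were Setdb1 (11.00 and 10.88), Cbx1, Rcor1, Ep400, Chd1, Kat5, Trrap and Rbbp5.

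The general pluripotency list had 18 of 26 members abundant, 7 middle and 0 in background, with a median of 11.73. Its highest members after Dppa5a were Utf1, a chromatin factor of stem cells, at 13.31 and 13.34, Trim28, Tdgf1, the co-receptor of Nodal also known as Cripto, at 13.21 and 13.14, and Dppa2, a chromatin protein, at 13.02 and 12.95. The middle members were Epcam (10.98 and 10.82), L1td1 (10.76 and 10.65), Tcl1 (10.20 and 9.89), Lefty1 (9.99 and 9.96), Foxd3 (9.52 and 9.46), Lefty2 (8.60 and 8.48) and Dppa3 (7.49 and 7.44). Dppa3 (Stella), a maternal factor that guards methylation in the zygote, was the lowest. Dppa4, the partner of Dppa2, crossed the abundant threshold at 10.91 and 11.16.

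The naive list had 10 of 24 members abundant, 11 middle and 1 in background, with a median of 10.97. The orphan receptor Nr0b1 (Dax1) led at 13.18 and 13.05, with Zfp57, which protects imprints, at 12.92 and 12.85, Bmp4 at 12.57 and 12.53, Dnmt3l at 12.51 and 12.47 and Klf5 at 12.50 and 12.38. Esrrb, a nuclear receptor of the naive circuit, read 11.99 and 11.82, and Tfcp2l1 11.91 and 11.72, and Jam2, Mkrn1 and Stat3 were abundant too. Fbxo15 (11.13 and 10.95) and Tet2 were split. The middle members were Klf2, Gbx2, Zfp42, Tbx3, Klf4, Nr5a2, Manba, Socs3, Pecam1, Prdm14 and Fgfbp1, from 11.00 and 10.88 for Klf2 to 8.55 and 8.32 for Fgfbp1. Nlrp4f was in background at 5.37 and 5.21.

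Genes of the primed epiblast lay lower. Of 19, 3 were abundant, 15 middle and 1 background, with a median of 9.47. The abundant members were the tight junction protein Cldn6 (12.53 and 12.58), the keratin Krt18 (11.88 and 12.16) and the de novo methyltransferase Dnmt3b (11.13 and 11.16). Otx2, a factor that drives exit from the naive state, read 10.004 and 10.028, Pou3f1 9.77 and 10.01 and Fgf5, a marker of the formed epiblast, 8.30 and 8.35. Cer1 was in background at 5.72 and 5.92. Of 15 listed genes of the rare state that resembles the 2-cell embryo, 7 had a value. Zscan4c, Zscan4d, Zscan4f and Dux had none, so that state was covered only in part. Of the 7, 4 were middle, 2 background and 1 split. Eif1a read 10.68 and 10.61, Tdpoz3 7.64 and 7.54 and Zfp352 6.91 and 7.15. Tdpoz1 read 6.42 and 6.14 and Tcstv3 5.11 and 5.13. Usp17la and Usp17lb of that list are near-identical copies, so their values are uncertain.

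**Figure D2:**
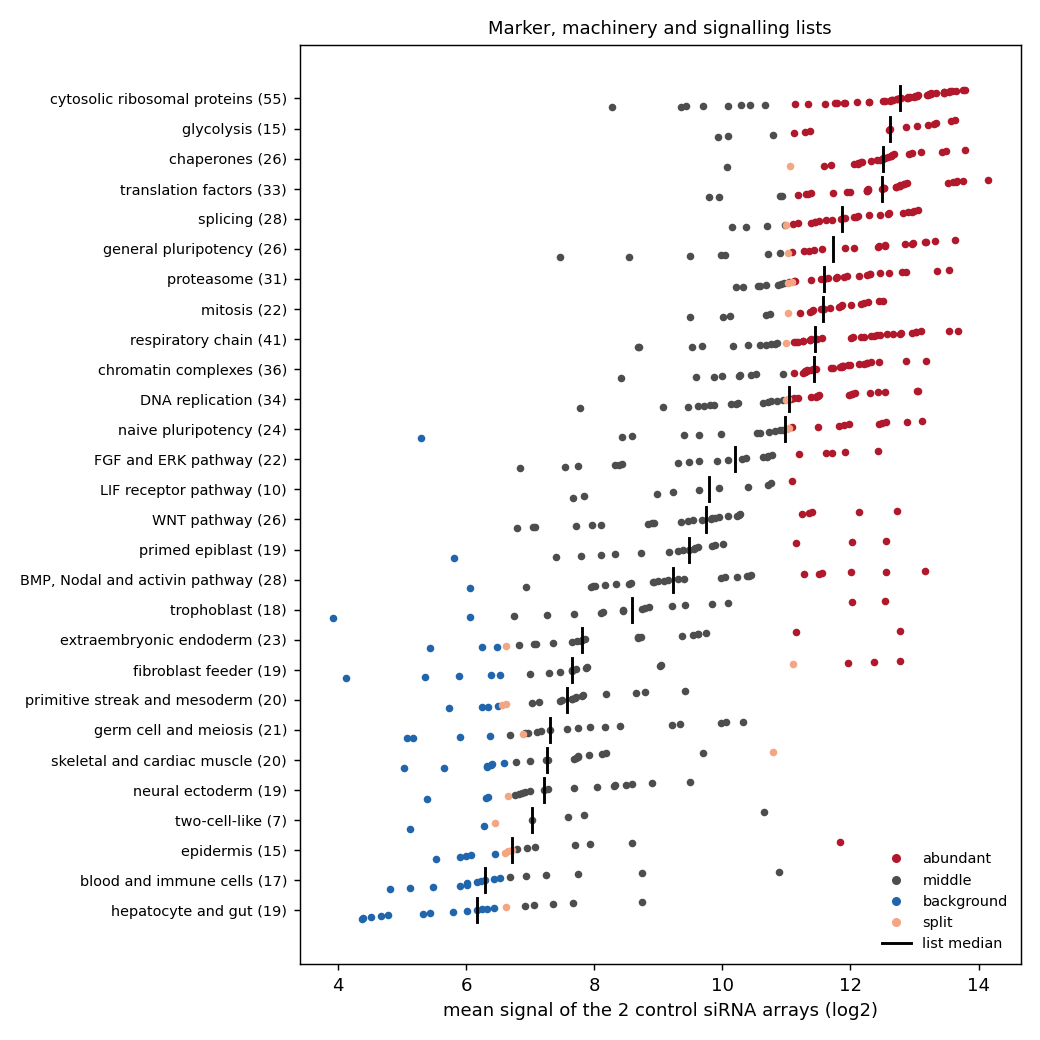
Mean signal of the 2 control siRNA arrays (log2, x axis) for each measured member of 28 gene lists, with the number of members in brackets. Points are coloured by class and black bars mark list medians, which run from 6.17 for hepatocyte and gut to 12.78 for cytosolic ribosomal proteins.

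Markers of other cell types were checked for cells that a culture could hold. Over 7 lists of somatic tissues with 128 genes in all, 4 genes were abundant, 67 middle, 48 background and 9 split, against 28, 18, 1 and 3 of the 50 genes on the 2 pluripotency lists. Over all 19938 genes 29.9% were background and 57.7% middle, with 9.64% abundant. These shares include the 1240 chemosensory receptors that set the background level, 1170 of them in background, which raises the background share. Most somatic genes and most of all genes were middle or background, so a place in either class is not particular to somatic genes. The 4 abundant genes were the fibroblast genes Vim, Fn1 and Acta2 and the epidermal 14-3-3 protein Sfn. In bulk RNA, fewer cells of a type and less RNA per cell cannot be told apart.

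Lists of blood and liver were mostly in background. The blood and immune list had 11 of 17 members there and 6 in the middle class, and its defining surface protein Ptprc (CD45) read 6.20 and 6.13. Cd68, a lysosomal protein of macrophages, was its highest member at 10.97 and 10.79, far from Cd3e next at 8.72 and 8.77. Tal1, Gata1, Cd8a and Cd2 were middle, between 6.68 and 7.75. The hepatocyte and gut list had 13 of 19 in background, with albumin (Alb) at 4.78 on both arrays, and 5 in the middle class led by Cdx1, an intestinal homeobox gene, at 8.75 and 8.74. The others were Apoa2, Hnf4a, Apoa1 and Pck1, between 6.87 and 7.72, and Apob was split.

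The neural list had 0 of 19 members abundant, 15 middle and 3 background. Tubb3, a neuronal tubulin, led at 9.63 and 9.37, with Nes at 8.78 and 9.03, Ncam1, Sox1 at 8.53 and 8.47 and Hes5. Fabp7 was split. Zic1 (6.28 and 6.35), Pax3 and Dcx were in background. The primitive streak and mesoderm list had 0 of 20 abundant, 14 middle and 4 background, led by Snai1 at 9.29 and 9.56 and Eomes at 8.84 and 8.75. The cardiac factor Nkx2-5 read 8.63 and 8.69 and Msgn1 8.22 and 8.16, while Foxc1, Foxc2, Meox1 and Tbx5 (5.63 and 5.83) were in background and Isl1 and Mesp1 were split.

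Of 19 fibroblast genes, 3 were abundant, 10 middle, 5 background and 1 split. Vimentin (Vim) read 12.80 and 12.73, fibronectin (Fn1) 12.23 and 12.52 and smooth muscle actin (Acta2) 11.75 and 12.16, and Tagln, which binds actin, was split at 10.95 and 11.27. Those in background were S100a4, Prrx1 (6.41 and 6.35), Dcn (5.90 and 5.87), Postn (5.49 and 5.21) and Lum (3.88 and 4.37), most of which belong to the matrix of mesenchymal cells. The collagen genes Col1a1, Col1a2 and Col3a1 were in the middle class between 7.63 and 9.08, as was Mmp2 at 9.02 and 9.07.

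Muscle had 0 of 20 members abundant, 12 middle and 7 background. Skeletal alpha-actin (Acta1), at 10.58 and 10.99, was split and cardiac alpha-actin (Actc1) read 9.48 and 9.93, while the myosins Myh1, Myh2, Myh4 and Myh6 with Ttn and the factors Myf5 and Myf6 were in background. Tnnt3, Des and Tnni2 followed the actins, between 7.89 and 8.22. Epidermis had 1 of 15 abundant, Sfn at 11.80 and 11.88, with 6 middle, 5 background and 3 split. Sprr1a (8.52 and 8.67), Ppl, Evpl and Krt14 came next, Krt15, Sprr1b and Krt5 were split, and Lor, Krt1, Dsc3, Ivl and Dsg3 were in background. Germ cell and meiosis genes had 16 of 21 members in the middle class, led by Tdrd12 at 10.35 and 10.28, Rhox9 at 9.93 and 10.18 and Mael at 10.12 and 9.83, with Rhox6 and Ddx4 next. Stra8, which starts meiosis, was in background at 5.04 and 5.12, as were Taf7l, Tnp1 and Sycp2, and Stk31 was split.

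The extraembryonic lineages of the early embryo were mainly in the middle class, as were 57.7% of all genes. The abundant share was 11.1% for trophoblast and 8.70% for extraembryonic endoderm, near the 9.64% of all genes. Trophoblast had 2 of 18 members abundant, the simple keratins Krt8 (12.39 and 12.69) and Krt18, and 14 middle, led by Plet1, Tfap2c (9.90 and 9.78) and Tead4, with Cdx2 at 8.03 and 8.24. Its placental members Elf5 and Tpbpa were in background. Extraembryonic endoderm had 2 of 23 members abundant, 17 middle, 3 background and 1 split. Sparc, a matrix protein, read 12.69 and 12.87 and laminin gamma 1 (Lamc1) 11.11 and 11.20, and the lineage factors Gata6 and Gata4 read 9.34 and 9.89, and 8.50 and 8.95. Laminin beta 1 (Lamb1) read 9.51 and 9.98, the yolk sac proteins Afp and Ttr and the receptor Thbd were in background, and Apob was split.

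The pathways that act on stem cells in culture were measured from ligand to target. Over all genes, 9.64% were abundant and 57.7% middle. In the LIF pathway, 1 of 10 members was abundant, near the share of all genes, and 9 were middle. LIF supports self-renewal through a receptor made of Lifr and Il6st and the kinase Jak1, which activates Stat3. The ligand Lif read 7.77 and 7.91, the receptor chains Lifr 9.96 and 9.95 and Il6st 10.74 and 10.69, Jak1 10.42 and 10.38, the phosphatase Ptpn11 10.83 and 10.71 and Jak2 7.61 and 7.72. Stat3 was the highest member at 11.12 and 11.07, and its target and inhibitor Socs3 read 9.68 and 9.59.

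In the BMP, Nodal and activin pathway 6 of 28 members were abundant, 21 middle and 1 background. The abundant share was 21.4%, against 9.64% of all genes. The ligands Bmp4 (12.57 and 12.53), Gdf3 (11.55 on both arrays) and Nodal (11.31 and 11.23) and the co-receptor Tdgf1 were abundant, while Bmp2 was in background at 6.06 and 6.07. The receptors Bmpr1a (10.26 and 10.21), Bmpr2 (10.34 and 10.48) and Acvr1b (8.94 and 8.89) were middle. The shared transducer Smad4 was abundant at 11.55 and 11.47, as was Id2, a target of BMP signals, at 11.995 and 12.021.

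In the FGF and ERK pathway 5 of 22 members (22.7%, against 9.64% of all genes) were abundant and 17 middle. The ligand Fgf4, which primes stem cells for differentiation, read 11.98 and 11.84 and its main receptor Fgfr1 11.62 on both arrays. The relay lay in the middle class, with Braf at 10.72 and 10.81, Nras at 10.62 and 10.67 and Map2k1 at 10.74 and 10.64. The targets and feedback inhibitors Etv5 (12.46 and 12.39), Spry4 (11.77 and 11.64) and Dusp6 (11.22 and 11.16) were abundant.

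In the WNT pathway 5 of 26 members (19.2%, against 9.64% of all genes) were abundant and 21 middle. The 6 WNT ligands on the list were middle, from Wnt7b at 8.88 and 8.92 to Wnt11 at 6.71 and 6.89. The receptor Fzd7 (11.31 and 11.19), the kinases Gsk3a (12.16 and 12.10) and Csnk1a1, beta-catenin (Ctnnb1, 12.74 and 12.70) and the repressor Tcf7l1 (11.32 and 11.40) were abundant, and the target Axin2 read 8.89 and 8.98.

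Which member of a gene family dominated was measured on 50 families in which every listed member had a value. A member was taken as dominant when it was above background and led every other member by at least 1 on the log2 scale on both arrays. That held in 32 families and not in 18, with a median lead of 1.95 over the 50. Among genes with several probe sets, 36.2% of the 887 had a gap of at least 1 between their own 2 brightest probe sets on both arrays, so a lead near 1 is within the gaps seen between probe sets of the same gene. In 14 families the lead on both arrays exceeded 3.05, the 90th percentile of those gaps.

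**Figure D3:**
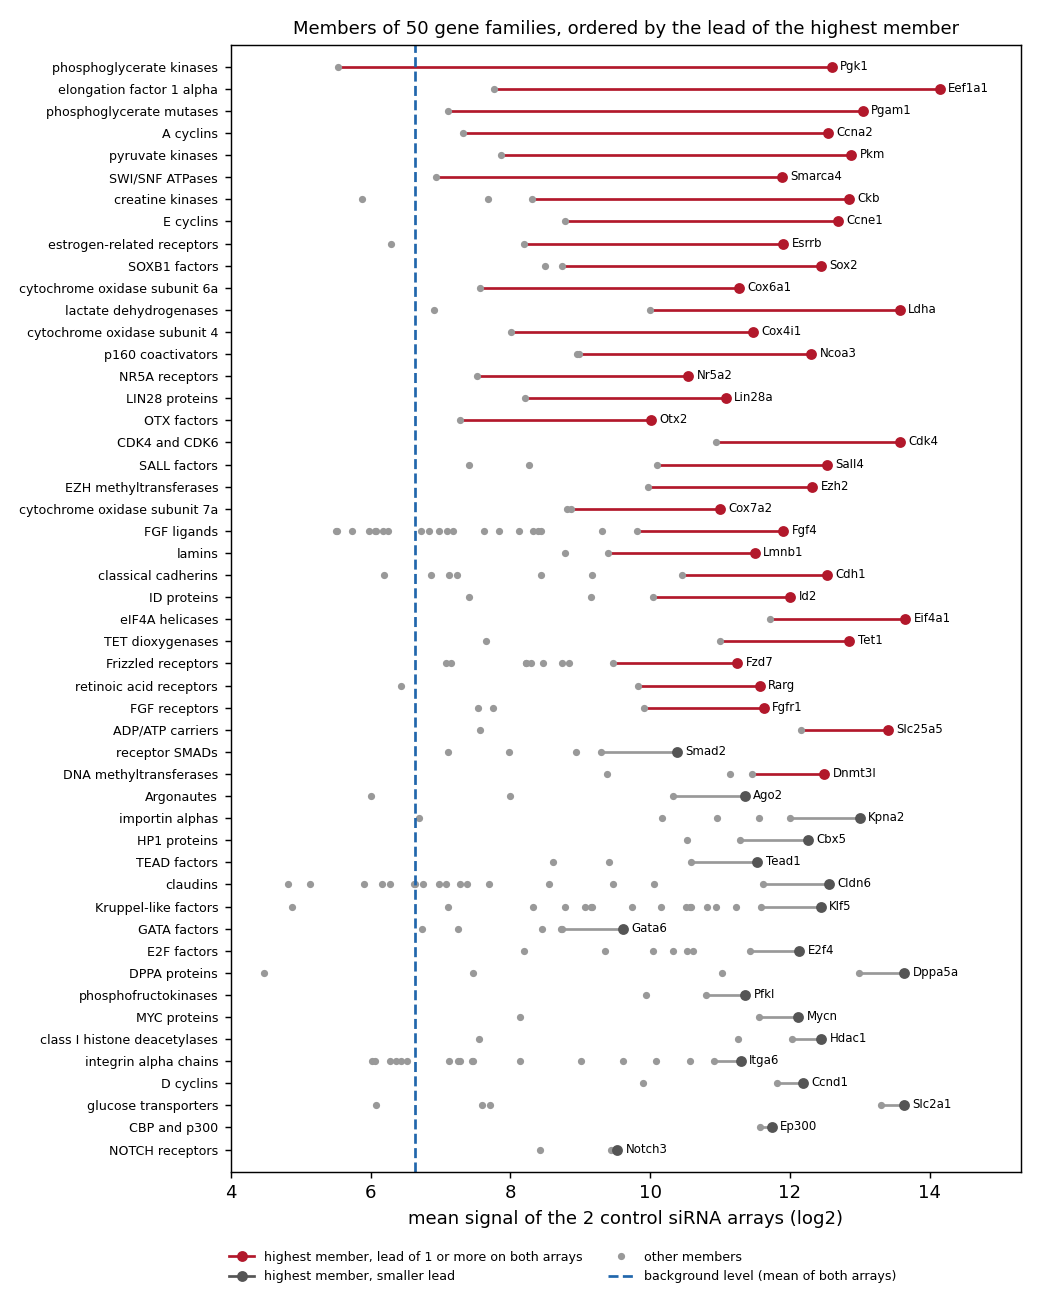
Mean signal of the 2 control siRNA arrays (log2, x axis) for the members of 50 gene families, ordered by the lead of the highest member, whose name is given. Red marks the 32 families with a lead of at least 1 on both arrays, grey points the other members and the dashed line the background level; leads run from 0.02 for NOTCH receptors to 7.07 for phosphoglycerate kinases.

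Several enzymes of energy metabolism had wide leads. Pgk1, the phosphoglycerate kinase of most tissues, read 12.65 and 12.54 against 5.55 and 5.51 for Pgk2, the copy of the testis, which was in background. Pgam1 led Pgam2, the muscle form, by 5.80 and 6.06, and the pyruvate kinase Pkm led the liver and red cell form Pklr by 4.93 and 5.11. Lactate dehydrogenase was led by Ldha at 13.62 and 13.53, over Ldhb at 10.04 and 9.95 and the testis form Ldhc at 7.01 and 6.80. Brain-type creatine kinase (Ckb) read 12.83 and 12.88 against 8.35 and 8.27 for the mitochondrial form Ckmt1 and 7.62 and 7.73 for the muscle form Ckm.

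A dominant member was also found for 3 subunits of cytochrome oxidase. Cox4i1 led Cox4i2 by 3.47 and 3.45, and Cox6a1 led Cox6a2, the form of heart and muscle, by 3.71 and 3.70. Cox7a2 led the next member by 2.14 and 2.10, which was the muscle form Cox7a1 (8.91 and 8.70) on replicate 1 and Cox7a2l (8.89 and 8.83) on replicate 2. The ADP/ATP carrier Slc25a5 led Slc25a4 by 1.24 and 1.23, and the testis carrier Slc25a31 read 7.66 and 7.48. Some metabolic families had no dominant member. The glucose transporters Slc2a1 and Slc2a3 stood within 0.34 and 0.33 of each other, and the phosphofructokinases Pfkl and Pfkp within 0.48 and 0.65.

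In translation, Eef1a1 led Eef1a2, the form of neurons and muscle, by 6.36 and 6.39. The helicase Eif4a1 led Eif4a2 by 1.93 on both arrays. The importin Kpna2 led Kpna3 by 1.00 and 0.99, at the edge of the criterion, and did not pass it.

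Cyclins differed by type. The S-phase cyclin Ccna2 read 12.52 and 12.57 against 7.35 and 7.29 for Ccna1, the meiotic form. Ccne1 led Ccne2 by 3.90 and 3.91, and Cdk4 led Cdk6 by 2.69 and 2.58. The D cyclins had no dominant member, with Ccnd1 at 12.14 and 12.25, Ccnd3 at 11.90 and 11.74 and Ccnd2 at 9.77 and 10.02. E2f4, a repressor of the E2F family, stood at 12.12 and 12.14, within 0.69 and 0.70 of E2f8, and Mycn, at 12.11 and 12.13, within 0.53 and 0.58 of Myc.

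Chromatin families with a wide lead included the SWI/SNF ATPases, where Smarca4 (Brg1) read 11.85 and 11.91 and Smarca2 (Brm) 6.86 and 7.02. Ezh2 led Ezh1 by 2.38 and 2.33. Among the TET dioxygenases, which oxidise methylcytosine, Tet1 read 12.82 and 12.88, Tet2 11.18 and 10.83 and Tet3 7.57 and 7.73. Among DNA methyltransferases the order was Dnmt3l, Dnmt1, Dnmt3b and Dnmt3a, and Dnmt3l, which has no catalytic activity of its own, led Dnmt1 by 1.01 and 1.06. The deacetylases Hdac1 and Hdac3 differed by 0.48 and 0.36, the acetyltransferases Ep300 and Crebbp by 0.18 and 0.15, and the HP1 proteins Cbx5 and Cbx3 by 0.94 and 1.02.

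Coactivators of the p160 class were led by Ncoa3. It read 12.33 and 12.28, against 8.97 and 8.98 for Ncoa1 and 8.94 and 8.97 for Ncoa2. The lead of 3.36 and 3.30 exceeded the 90th percentile of gaps between probe sets of the same gene, while Ncoa1 and Ncoa2 lay side by side.

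Several families of regulators were led by a member known from pluripotent cells. Sox2 led Sox3 by 3.93 and 3.49, Esrrb led Esrra by 3.89 and 3.53, Nr5a2 led Nr5a1 by 3.09 and 2.95 and Sall4 led Sall1 by 2.33 and 2.53. Lin28a, which blocks the maturation of let-7, led Lin28b by 2.87 and 2.88, and Otx2 led Otx1 by 2.72 and 2.76. The retinoic acid receptor Rarg led Rara by 1.77 and 1.71, while Rarb was in background at 6.54 and 6.33.

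Other factor families held several members at like signal. The 17 measured Kruppel-like factors ran from Klf5 at 12.50 and 12.38 through Klf9 (11.63 and 11.55), Klf3, Klf2 and Klf4 to Klf17 in background at 4.76 and 4.99. Dppa5a and Dppa2 differed by 0.61 and 0.70. Tead1 led Tead2 by 0.84 and 1.06, and Gata6 led Gata3 on replicate 1 and Gata4 on replicate 2, by 0.59 and 0.95.

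Among signalling and surface families, Fgf4 led the 22 measured genes of the FGF family, by 2.09 and 2.10 over Fgf18, and Fgfr1 led Fgfr2 by 1.73 and 1.68. Fzd7 led Fzd5 by 1.57 and 1.98, Id2 led Id1 by 1.93 and 2.01 and E-cadherin (Cdh1), at 12.48 and 12.59, led P-cadherin (Cdh3) by 1.99 and 2.16. Lmnb1 led Lmnb2 by 2.05 and 2.14, and the lamin of differentiated cells, Lmna, read 8.80 and 8.76. Smad2 led Smad3 by 1.19 and 0.96, Ago2 led Ago1 by 1.10 and 0.96, Cldn6 led Cldn4 by 0.91 and 0.95 and Itga6 led Itga5 by 0.50 and 0.28. Notch3, Notch1 and Notch2 lay between 9.33 and 9.64, and their order differed between the arrays.

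The background level follows from its reference genes. By construction 95% of the 1240 chemosensory receptors lay at or below it on each array, and 1170 did so on both, with 54 middle, 16 split and 0 abundant. The 5 highest were Olfr1174 (8.613 and 8.998), Olfr239 (8.50 and 8.49), Olfr314 (8.09 and 8.22), Olfr985 (8.06 and 8.10) and Olfr767 (7.70 and 8.31). These receptors stood as high as many lineage genes of the middle class. A second reference of 111 genes of hair, eye lens, defensins and seminal fluid gave a higher 95th percentile, 8.34 and 8.59, and at that level 11373 genes would be background and 5707 middle. At that level 108 of the 128 somatic genes would be in background, and 42 of the 50 pluripotency genes would stay above it. A middle signal under that level, such as 7.85 and 7.81 for Foxf1, may thus be background, and the part of probe base composition was not tested.

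Genes of microRNAs were largely in background. Of 297, 199 were background, 67.0% against 29.9% of all genes, 92 middle, 6 split and 0 abundant, against 9.64% of all genes. Whether these probe sets read the precursor or the mature RNA is not given in the sources used here. The clusters below were chosen after their values were seen. The mature sequences are shown from RefSeq (GRCm38.p6) with the seed, bases 2 to 8, in capitals, to show which of them share a seed.
miR-302b-3p: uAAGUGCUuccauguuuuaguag
miR-302d-3p: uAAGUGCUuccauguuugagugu
miR-17-5p: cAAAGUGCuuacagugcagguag
miR-20a-5p: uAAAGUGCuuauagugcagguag
miR-18a-5p: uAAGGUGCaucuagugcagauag
let-7a-5p: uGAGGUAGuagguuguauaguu
let-7e-5p: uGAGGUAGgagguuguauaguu

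The miR-302 cluster, which favours the pluripotent state and shares the seed AAGUGCU in miR-302b-3p and miR-302d-3p, had its 5 measured genes in background, from 3.66 and 3.71 for Mir367 to 4.56 and 5.05 for Mir302c. Of the miR-290 cluster, 0 of 10 listed genes had a value, so the microRNAs of stem cells were covered only in part. In the miR-17 cluster, a cluster that promotes growth, Mir18 was highest at 8.78 and 8.96, Mir19a was middle at 6.92 and 7.12, Mir19b-1 was split, and Mir17 and Mir20a, which share the seed AAAGUGC, were in background at 6.22 and 6.56, and 5.72 and 5.75. The let-7 family, which promotes differentiation and carries the seed GAGGUAG, had 6 of 9 genes in background and 3 middle, Mirlet7e (7.60 and 7.73), Mirlet7i (7.16 and 7.44) and Mirlet7d (6.93 and 7.31).

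Promoters were compared with signal because CpG-rich promoters are typical of genes active in every tissue. RefSeq promoters (GRCm38.p6), cut to the 250 bases before each gene's start, were matched to 15563 of the 19938 genes, 78.1%. Coverage was 82.3% in the abundant class, 78.8% in the middle class and 75.6% in the background class. Since coverage below 80% makes a comparison of observed class medians void, the medians are given as the bounds that the unmatched genes allow. The median number of CpG in the abundant class lay between 16 and 21 and that of the background class between 1 and 4, so the bounds of these medians did not overlap whatever the unmatched promoters hold. The middle class lay between 11 and 18. The background class includes 1170 of the chemosensory receptors, whose own median lay between 0 and 1, and no bounds were computed without them.

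The promoters shown contrast markers and paralogs of known rank, with CG in capitals and each read 5′ to 3′ on the gene's strand. Sox2 (plus strand, chr3:34649745-34649994) held 27 CpG, Pou5f1 (plus strand, chr17:35505782-35506031) 8 and Nanog (plus strand, chr6:122707239-122707488) 3. Eef1a1 (minus strand, chr9:78481725-78481974) held 18, against 4 for its low paralog Eef1a2 (minus strand, chr2:181157016-181157265). Olfr788 (plus strand, chr10:129472444-129472693), the background receptor nearest the receptors' median signal at 4.67 and 4.86, held 1.
Sox2 promoter: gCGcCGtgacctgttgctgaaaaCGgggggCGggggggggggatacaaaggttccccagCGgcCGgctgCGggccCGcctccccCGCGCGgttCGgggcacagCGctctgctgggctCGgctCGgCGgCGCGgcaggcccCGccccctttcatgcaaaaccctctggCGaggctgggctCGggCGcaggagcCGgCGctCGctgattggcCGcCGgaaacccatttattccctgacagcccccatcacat
Pou5f1 promoter: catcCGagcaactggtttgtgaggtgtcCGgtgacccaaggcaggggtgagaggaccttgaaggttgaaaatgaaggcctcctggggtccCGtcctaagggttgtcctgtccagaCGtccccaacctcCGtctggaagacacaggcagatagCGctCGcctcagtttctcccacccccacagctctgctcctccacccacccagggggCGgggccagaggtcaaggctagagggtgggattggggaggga
Nanog promoter: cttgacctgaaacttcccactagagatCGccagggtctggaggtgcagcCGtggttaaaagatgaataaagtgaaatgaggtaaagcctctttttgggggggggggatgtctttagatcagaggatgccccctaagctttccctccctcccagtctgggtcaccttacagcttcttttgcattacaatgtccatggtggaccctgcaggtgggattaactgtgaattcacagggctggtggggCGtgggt
Eef1a1 promoter: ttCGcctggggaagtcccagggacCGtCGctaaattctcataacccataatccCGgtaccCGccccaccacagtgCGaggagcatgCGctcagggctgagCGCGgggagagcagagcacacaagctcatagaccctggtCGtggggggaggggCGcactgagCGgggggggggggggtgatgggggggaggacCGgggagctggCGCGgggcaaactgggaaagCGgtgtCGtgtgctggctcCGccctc
Eef1a2 promoter: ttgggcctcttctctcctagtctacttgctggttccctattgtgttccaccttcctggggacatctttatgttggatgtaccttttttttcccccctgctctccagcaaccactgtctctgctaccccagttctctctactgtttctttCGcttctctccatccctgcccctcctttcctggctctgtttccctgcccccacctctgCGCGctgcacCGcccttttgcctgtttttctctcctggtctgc
Olfr788 promoter: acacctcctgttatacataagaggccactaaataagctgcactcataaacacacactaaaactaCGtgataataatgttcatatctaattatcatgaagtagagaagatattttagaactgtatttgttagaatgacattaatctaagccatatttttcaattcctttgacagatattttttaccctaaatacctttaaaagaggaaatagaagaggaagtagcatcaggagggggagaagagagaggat

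Nanog and Sox2 thus stood in the same class with 3 and 27 CpG. From Nanog through Pou5f1 to Sox2, CpG rose as signal fell. Zfp42, whose promoter is not shown, held 9 CpG and read lower than all of them, at 10.94 and 10.71. The motif GGGCGG, the core bound by SP factors, searched on both strands, was present in 46.1% of the 15563 promoters. Between 53.3% and 71.1% of abundant genes held it, against 12.2% to 36.7% of background genes, with the same bounds for unmatched promoters. GGGCGG itself holds a CpG, so this contrast is not separate from that of the CpG counts. The motif TATAAA, also on both strands, was in 11.2% of the 15563 promoters, and its bounds of 4.79% to 22.5% in the abundant class and 16.8% to 41.2% in the background class overlapped. A match is a run of letters and not a binding site.

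The small difference between the arrays had a direction that followed signal. Replicate 2 was the higher array for 27.9% of abundant genes and 58.8% of background genes, and its interquartile range was 3.35 against 3.45. The largest differences above background were in Glipr1 (8.34 and 9.67), Vnn1 (6.81 and 7.71), Cubn (7.41 and 8.30), Calcoco2 (9.93 and 9.05), Slco2a1 (9.50 and 10.37) and Srgn (11.05 and 11.89). Calcoco2 alone of these 6 was higher on replicate 1. Over all 19938 genes, 3 differed by more than 1 on the log2 scale.

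Extraembryonic endoderm and naive genes lay on opposite sides of that difference. Of 23 extraembryonic endoderm genes, 20 were higher on replicate 2, with a median difference of 0.39, and the list's median SD was 0.28 against 0.07 for all genes. Cubn, Lama1 (9.16 and 9.91), Lrp2 (9.01 and 9.73) and Dab2 (9.29 and 9.94), which serve uptake and basement membrane in that tissue, differed the most. Of 24 naive genes, 0 were higher on replicate 2, with a median difference of -0.18, and Prdm14 (8.83 and 8.34) and Tet2 differed the most. The 5 cytoplasmic and muscle actin genes measured were all higher on replicate 2. After the 2 arrays were given 1 distribution by quantile normalization, 19 of the 23 and 1 of the 24 were higher on replicate 2, against 45.1% of all genes. Before that step, replicate 2 was also the lower array for most genes of each machinery list. It was higher for 1 of 31 proteasome genes, 2 of 41 respiratory chain genes and 11 of 28 splicing factors, with median differences of -0.10, -0.09 and -0.04. Quantile normalization made these counts 5, 7 and 14. The direction is thus not particular to the naive list. With 1 array on each side, these differences have no replicate check and no test was made.

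**Figure D4:**
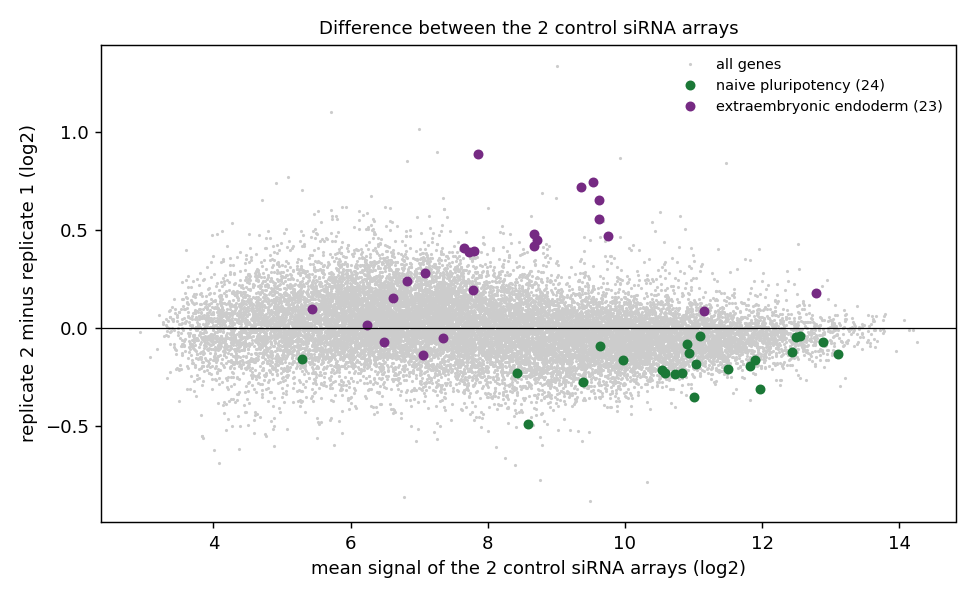
Replicate 2 minus replicate 1 (log2, y axis) against the mean of the 2 control siRNA arrays (log2, x axis) for all 19938 genes (grey), 24 naive pluripotency genes (green) and 23 extraembryonic endoderm genes (purple). All 24 green points lie below 0 and 20 of the 23 purple points lie above it.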

How the data were processed

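Total RNA of 6 samples was hybridised to arrays labelled with Cy3, and the 2 control siRNA arrays were analysed. The authors deposited log2 values of 35556 probe sets. That base is a reading of the range, 2.69 to 14.6, and no label states it. The submitters' processing notes name Partek. How background was corrected and arrays were normalized is not given in the sources used. Such steps set the range of low signals, so the background level is relative to them. No detection values were used, and the number of arrays limits the precision.

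Names came from GEO's platform annotation, where 21789 probe sets had 1 symbol, 1621 had several and stayed unnamed, and 12146 had no entry. The probe set of highest mean stood for each of 999 genes with more than 1. Symbols matched RefSeq for all but 82 of the 19938 genes. The files name no genome build, so coordinates are RefSeq's.

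Levels, ranks, classes and leads were computed in Python 3.11.15 with pandas 2.3.3 and numpy 2.4.6. The steps for classes and leads were tested on simulated data. Those data had gaps between the classes and a wide lead in every family. They therefore do not test genes near a threshold or leads near 1. With 2 arrays of 1 group no significance test was made, and the spread is the SD over the 2 arrays.

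The text names, by rule, the 5 defining markers and Ncoa3, the 25 genes of highest mean without a predicted name, the highest 5 members of each list and members outside its commonest class, the first and second members of each family, the 5 highest chemosensory receptors and the 6 above-background genes with the largest array difference. Not every gene the rule covers is named: first and second members of families not measured in full are left out. Further members are named to describe pathways and families. The members and lists were chosen with earlier results of these data known, and the imprinted, Y-linked and microRNA lists after values were seen. Lists and families were written from general knowledge, and genes without a probe set of their own were not analysed here. Promoters used the 250 bases before the start and left out the 50 after it. Alternatives were the median over probe sets, other background and abundant levels, each array alone, quantile normalization, a lead of 2 and all probe sets.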

Additional observations from a re-analysis of the deposited data

How the results depend on the processing

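No paired analysis was possible because only the control group was described and its replicates have no partner in another group. Class counts, list counts and promoter bounds were recomputed under each change of level, array or probe set, family counts under those other than the abundant level and the second reference, and r under 3 changes. Each array alone gave 1994 abundant genes, 11776 to 11778 middle and 6166 to 6168 background, and 34 dominant families against 32. Taking the highest 5% or 20% of genes as abundant gave 956 and 3868 genes in place of 1922, by construction. With the 90th and 99th percentile of the receptors, 27 and 77 of the 128 somatic genes were background in place of 48, and at the 99th percentile the highest possible median CpG of the background class was 6 in place of 4. The second reference gave 5707 middle and 11373 background genes, 108 somatic genes in background and a highest possible median CpG of 9, and the lists and promoters were recomputed with it after the data were seen. Pearson's r was 0.9954 over all 35556 probe sets and 0.9977 after quantile normalization. A lead of 2 left 23 dominant families. Of 300 recomputed family leads, 288 moved by no more than the SD between arrays and 12 moved further. The receptor percentiles do not enter a lead, and each array alone stays within that SD by construction. Only the median over probe sets and quantile normalization could move a lead further, so the 288 overstate how far the leads were tested. Among the 300, 1 lead, that of Notch3 on replicate 1, fell below 0. Where both arrays must pass, genes near a threshold fall in the split class, so the limit is 2 arrays and signal over background.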

Other observations

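Imprinted genes, a list chosen after values were seen, ranged over all classes, with 5 of 23 abundant, 12 middle, 3 background and 3 split, against 9.64% of all genes abundant. The 5 were Peg10, Phlda2, which restrains placental growth, at 12.46 and 12.48, Impact at 11.96 and 11.97, Mest at 11.84 and 11.95 and the growth factor Igf2 at 11.41 and 11.44. The noncoding RNA Meg3 read 10.22 and 10.81, while Rian, from the same imprinted cluster, was in background at 6.42 and 6.54.

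Genes of the Y chromosome divided, with 3 of 7 measured middle and 4 background. Eif2s3y, a translation factor, read 10.21 on both arrays, Uty, a histone demethylase homolog, 9.76 and 9.48 and Sry 8.50 and 8.61. In background, Zfy1 read 5.60 and 5.25, Kdm5d 5.22 and 5.20, Usp9y 4.89 and 4.72 and Zfy2 4.01 and 3.92. The X-inactivation RNA Xist read 6.66 and 6.74, just above the background levels of 6.61 and 6.66. Among protein-coding genes other than chemosensory receptors, 7.52% of 652 on the X chromosome were abundant and 37.7% background. The autosomes ranged from 8.80% to 14.2% abundant and from 17.3% to 32.1% background.

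By gene type, 10.2% of 18553 protein-coding genes were abundant, 7 of 53 snoRNA genes and 5 of 675 lncRNA genes, and 55.1% of the lncRNA genes were background. Probe sets left unnamed differed in signal by kind. Of the 1621 with several symbols, 489 stood above the abundant level on both arrays, 30.2%, and 25 of them that include Gapdh lay between 13.81 and 14.34 in mean, as high as the first named genes. Of the 12146 probe sets not listed, 810 stood above the abundant level, 6.67%, against 9.64% of named genes in the abundant class. Their median was 6.35, and 5221 were above background.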
